A study of Homo sapiens with 7 samples.

Results

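Wild-type (WT) HUES8 cells at the cardiac progenitor stage (CP, day 8) were compared with the cardiac mesoderm (CME, day 3) that precedes it in the differentiation protocol. The comparison uses 2 of the series' 7 libraries, and 1936324 of the 2586954 nuclear CpGs seen in any library (74.8%), namely those with 10 or more reads in both. They fall into 94044 of 123508 windows of 1 kb with 5 or more such CpGs, called bins here, with a median of 9 CpGs. HUES8 is an established human embryonic stem cell line. Its cells were turned towards heart muscle in a monolayer with CHIR99021, an activator of Wnt signalling (6 uM until day 2), and then IWP2, an inhibitor of it (5 uM, day 3 to day 5). The cells of the CP library were WT cells at day 8, after both agents and 1 day after insulin was added at day 7. The cells of the CME library were WT cells at day 3, after CHIR99021 and insulin-free medium. The other 5 libraries, used only to place the result, are WT stem cells (SC, day 0), WT cardiomyocytes (CM, day 14, after lactate medium from day 9; the title alone puts this library at CM, since its source label names CME and its description a day other than 14), and SC, CME and CP of cells in which TET1, TET2 and TET3 were knocked out together (TKO).

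Each group is 1 library, so replicate spread is unknown and each test compares libraries only. Methylation was read by enhanced reduced representation bisulfite sequencing, which samples CpG-rich fragments. The level of a bin is the share of reads that kept C, over all its CpGs. Median coverage per CpG was 63 reads in WT CP and 51 in WT CME. The library names of WT CME and WT SC carry a suffix that those of WT CP, WT CM and TKO do not. The share of C among mitochondrial reads, taken as cytosine left unconverted, was 0.219% in WT CP (42 CpGs) and 1.44% in WT CME (248 CpGs). Stage and library set cannot be told apart in this comparison. The cells are bulk, so an intermediate level does not tell a share of the cells from a share of the alleles in each, and a changed cell mixture from a changed level per cell. Expression was not measured in these files, so the labelled cell types were not checked against their markers.

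DNA methylation is the addition of a methyl group to cytosine, in human DNA mostly at CpG. Most CpGs of the genome are methylated, while CpG-rich gene starts are usually free of it. TET enzymes oxidise methylated cytosine, a route by which it can be turned back to plain cytosine, and DNMT enzymes put the mark on. Enhancers used in a tissue often lose methylation as that tissue forms.

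The comparison reached some gene starts directly, and 4 of those that lost methylation are printed below to show which CpGs were read. They are RefSeq sequences (GRCh38.p14), 300 bases each, in the direction of the gene and mostly before its start, and they were chosen after their values were seen. Capitals mark the CpGs read 10 or more times in both libraries. Each was placed on hg19 by matching the spacing of its CG pairs to that of the CpGs in the files. The SLC25A45 window matched chr11:65149393-65149692 (minus strand), FXYD1 chr19:35630288-35630587 (plus), MIR1-1HG chr20:61147410-61147709 (plus) and SMIM24 chr19:3480474-3480773 (minus).
SLC25A45: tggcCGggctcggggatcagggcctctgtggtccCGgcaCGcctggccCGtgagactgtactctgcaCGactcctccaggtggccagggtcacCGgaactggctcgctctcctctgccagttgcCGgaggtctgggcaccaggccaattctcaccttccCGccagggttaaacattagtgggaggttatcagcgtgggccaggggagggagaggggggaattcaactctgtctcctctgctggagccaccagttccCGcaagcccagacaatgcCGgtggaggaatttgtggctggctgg
FXYD1: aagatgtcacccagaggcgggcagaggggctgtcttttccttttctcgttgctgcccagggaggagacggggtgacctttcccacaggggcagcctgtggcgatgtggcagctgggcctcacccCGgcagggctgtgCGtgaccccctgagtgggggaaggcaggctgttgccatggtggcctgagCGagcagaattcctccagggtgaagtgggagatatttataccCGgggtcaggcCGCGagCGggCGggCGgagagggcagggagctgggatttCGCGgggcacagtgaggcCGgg
MIR1-1HG: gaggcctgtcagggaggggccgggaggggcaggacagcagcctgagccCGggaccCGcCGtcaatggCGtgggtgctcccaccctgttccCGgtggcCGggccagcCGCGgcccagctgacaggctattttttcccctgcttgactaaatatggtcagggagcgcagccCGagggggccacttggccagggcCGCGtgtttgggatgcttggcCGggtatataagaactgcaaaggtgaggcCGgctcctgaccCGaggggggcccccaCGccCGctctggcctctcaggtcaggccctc
SMIM24: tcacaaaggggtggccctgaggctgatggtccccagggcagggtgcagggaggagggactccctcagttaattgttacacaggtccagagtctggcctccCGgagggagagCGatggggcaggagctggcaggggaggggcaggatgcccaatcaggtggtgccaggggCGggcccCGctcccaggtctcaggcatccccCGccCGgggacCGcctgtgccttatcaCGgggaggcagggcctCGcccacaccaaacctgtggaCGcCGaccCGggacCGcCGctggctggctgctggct

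Methylation was lower in WT CP at many separate places and higher at very few. Of 94044 bins, 3365 (3.58%) were lower in WT CP, relative to WT CME, and 33 (0.0351%) were higher, at an adjusted p below 0.01 (two-sided Fisher's exact test on reads, Benjamini-Hochberg over all bins) and a change of at least 25 percentage points. The lost bins had a median level of 38.0% in WT CP, against 78.9% in WT CME. In all bins the median difference was -1.75 points (quartiles -5.16 and -0.412), so most of the genome sampled moved little. Over single CpGs the mean level was 40.7% in WT CP and 43.9% in WT CME. CpGs above 80% made up 36.1% of those read in WT CP and 40.6% in WT CME, and CpGs between 20% and 80% made up 11.4% in WT CP and 9.13% in WT CME. By size alone, 78413 CpGs (4.05%) were 25 points or more lower in WT CP and 5234 (0.27%) were that much higher. Without a limit on size, 40401 bins passed as lower and 1583 as higher, at coverage that resolves differences of a few points. The mitochondrial C share was 0.219% in WT CP and 1.44% in WT CME. Bins under 20% in WT CME had a median difference of -1.54 points. These counts were not corrected for unconverted cytosine, and its part in differences of a few points was not tested. The test counts a read at each CpG it covers, so its p-values are too small where reads cover several CpGs.

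**Figure D1:**
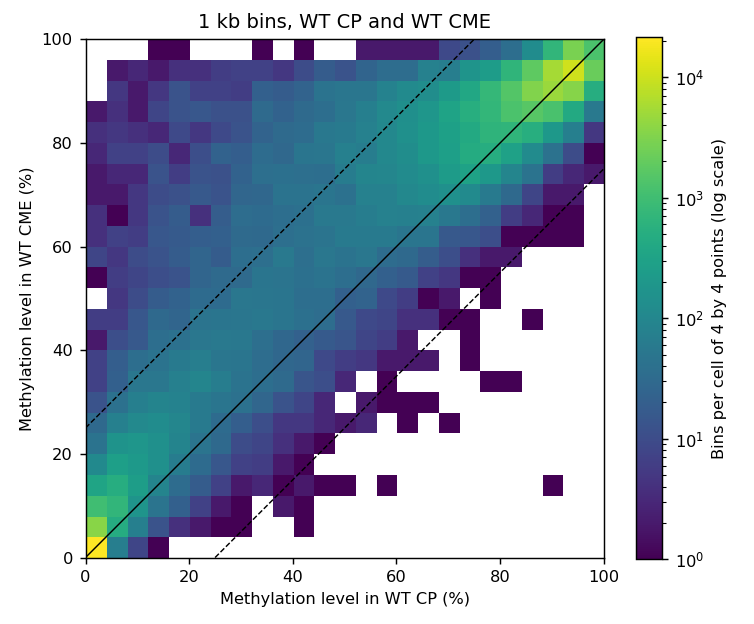
Methylation level of each of 94044 bins of 1 kb in WT CP (x axis, %) and WT CME (y axis, %), as the number of bins per cell of 4 by 4 points on a log colour scale. The solid line marks equal levels and the dashed lines a difference of 25 points. The 3365 lost bins lie above the upper dashed line, 313 of them above 60% in WT CP, and the 33 gained bins lie below the lower one.

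Most lost bins stopped at an intermediate level. In WT CP, 708 of the 3365 (21.0%) lay under 20%, 2344 lay between 20% and 60%, and 313 stayed above 60%. The loss reached 40 points in 1046 bins and 60 points in 207. Inside the lost bins, 62.8% of the CpGs were each 25 points or more lower, and in 991 bins (29.5%, against 1.77% of all bins) the highest CpG of WT CP lay under the lowest CpG of WT CME. When each CpG counted equally instead of each read, the difference was still 25 points or more in 2685 of the lost bins (79.8%). The bins nearest the limit show how it cuts. Just inside lay chr11:59332001-59333000, at 66.7% in WT CP and 91.7% in WT CME, and chr2:241923001-241924000, at 25.8% in WT CP and 50.8% in WT CME. Just outside lay chr22:18334001-18335000, at 67.5% in WT CP and 92.5% in WT CME, and chr1:3052001-3053000, at 54.9% in WT CP and 79.9% in WT CME.

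The share of bins lost varied with the level at CME, and a bin under 25% there could not be called lost. Loss was called in 23.3% of bins at 40% to 60% in WT CME, 17.2% at 60% to 80%, 6.28% at 80% to 90%, 1.79% at 90% to 95% and 0.536% above 95%. Bins with few CpGs lost more often. Among bins at 60% or more in WT CME, the share lost was 4.91% with 5 to 9 CpGs, 4.22% with 10 to 19, 2.85% with 20 to 39 and 1.08% with 40 or more. Bins at gene starts, from 1000 bases before to 500 after a start that could be placed, were lost in 0.817% of cases, against 4.16% elsewhere. Most of them were low in both libraries, with a median level of 0.261% in WT CP and 1.79% in WT CME. Among bins at 60% or more in WT CME the order turned round, with 6.52% lost at gene starts and 4.54% elsewhere. Away from gene starts, the share was 4.47% inside placed genes and 4.02% outside them, and among bins at 60% or more in WT CME it was 4.42% inside and 4.61% outside. These are shares of bins of 1 pair of libraries, without a test between classes.

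**Figure D2:**
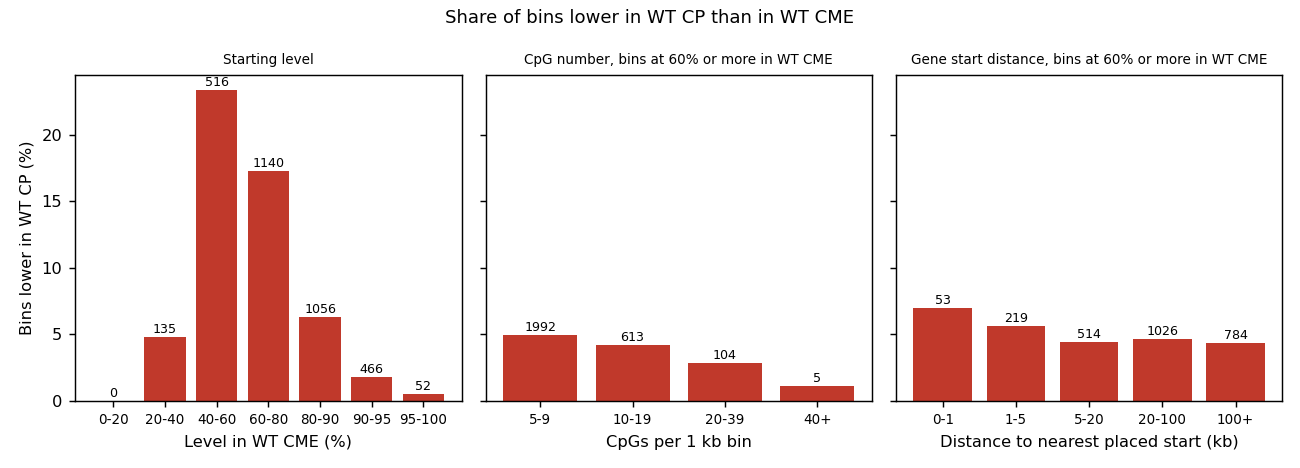
Share of 1 kb bins called lower in WT CP (y axis, %), with the number of lost bins above each bar, by level in WT CME (left), by CpGs per bin (middle) and by distance to the nearest placed gene start (right). The middle and right panels hold bins at 60% or more in WT CME. The share peaks at 23.3% for bins at 40% to 60% and declines with CpG number from 4.91% to 1.08%.

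The loss was patchy along the chromosomes. The 3365 bins formed 3182 runs of neighbouring lost bins, where 1 unmeasured bin in between was allowed. Of the runs, 3015 were single bins, 154 were pairs and 11 held 3 bins. Of the single bins, 1864 had no measured neighbour, so their full width was not seen. Bins 1 kb from a lost bin were themselves lost in 16.3% of cases, against 2.86% for neighbours of any bin. At 5 kb the shares were 8.12% and 4.33%. The 1 kb neighbours of lost bins had a median level of 85.6% in WT CME, against 44.3% for those of any bin. The latter thus had less methylation to lose by their median, and the 1 kb shares were not compared at matched WT CME levels. At 5 kb the WT CME medians were closer, at 88.8% and 87.9%.

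The run with the most bins lay at chr16:86959001-86966000, with 5 lost bins and 59 CpGs at 35.5% in WT CP and 92.1% in WT CME. The nearest placed gene start, that of FLJ30679, lay 373574 bases away. Its bins ranged from 29.8% to 61.6% in WT CP and from 88.3% to 94.1% in WT CME, so no bin of one library reached those of the other. The second, chr11:2799001-2804000, had 4 bins and 39 CpGs at 60.5% in WT CP and 91.5% in WT CME. Its middle lay at -89762 bases from the nearest placed start, that of KCNQ1DN. That gene is named as the downstream neighbour of the heart potassium channel gene KCNQ1. The start of KCNQ1 itself was not placed, so whether the run lies inside KCNQ1 was not determined. Of the 11 runs of 3 bins, the 3 with the largest mean loss follow. That at chr16:85568001-85571000 stood at 21.9% in WT CP and 79.9% in WT CME. That at chr17:80548001-80552000 inside FOXK2, which encodes a forkhead transcription factor, stood at 19.6% in WT CP and 74.4% in WT CME. The last, chr21:46829001-46832000 inside COL18A1, which encodes the basement membrane collagen that yields endostatin, stood at 30.5% in WT CP and 91.7% in WT CME. The COL18A1 run held the widest range, with bins from 4.14% to 66.0% in WT CP and from 89.5% to 93.6% in WT CME. In the TKO CP library all the runs named here stood, each as a whole, between 90.2% and 93.0%, the latter being the COL18A1 run.

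**Figure D3:**
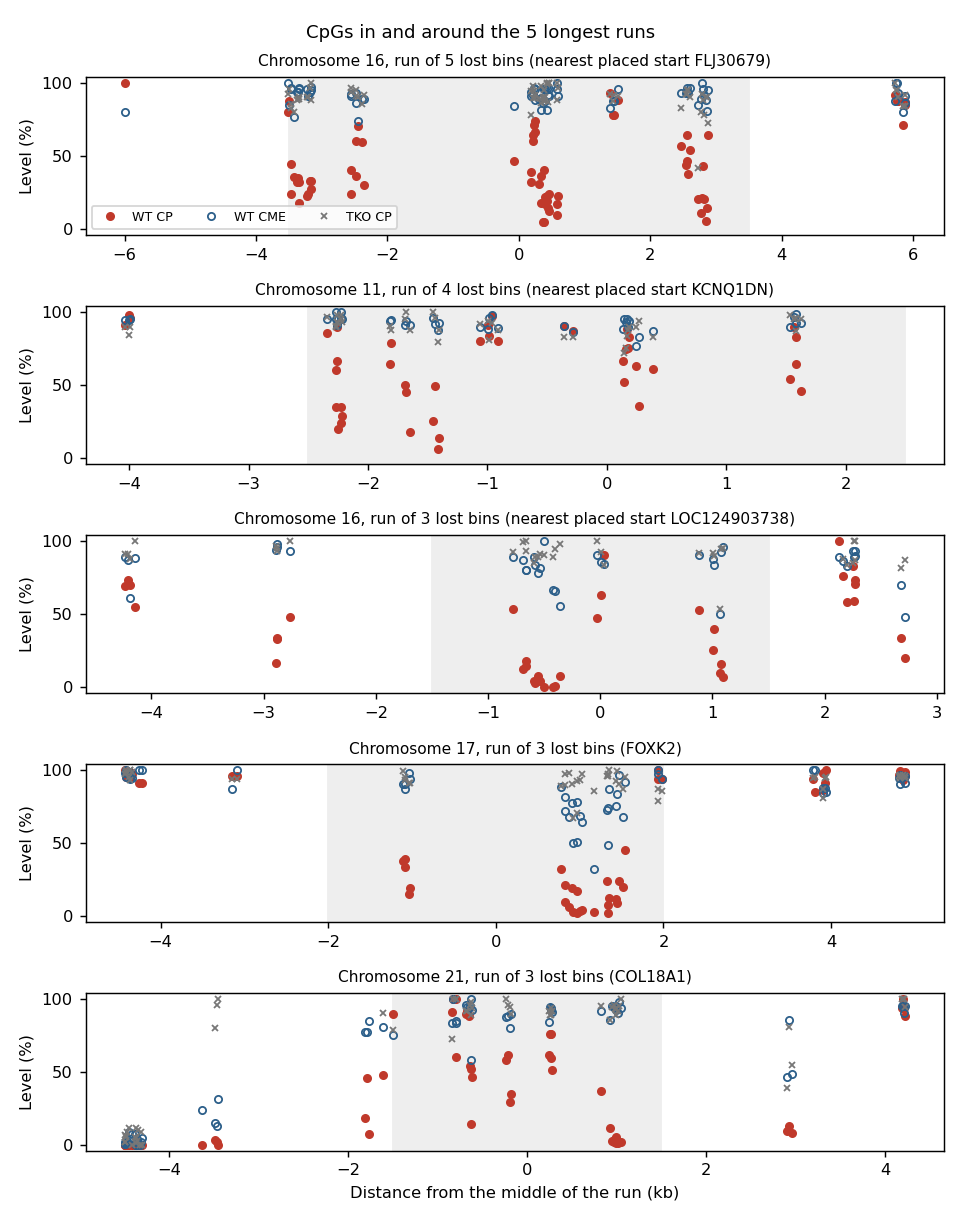
Level of each CpG (y axis, %) in WT CP (filled red), WT CME (open blue) and TKO CP (grey crosses) by distance from the middle of the run (x axis, kb), for the runs of 5 and 4 lost bins and the 3 runs of 3 with the largest mean loss. Grey shading marks each run. In the first run WT CP lies at 35.5% over all reads, while WT CME lies at 92.1% and TKO CP at 90.2%, and CpGs beyond the run's ends lie high in all 3.

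The 20 bins with the largest loss were almost fully methylated at CME and nearly free of it at CP. They spanned 1.04% to 16.1% in WT CP and 83.1% to 98.3% in WT CME, with 5 to 16 CpGs each and a highest adjusted p of 2.40e-20 (Fisher's exact test). That p counts a read at each CpG it covers. In 19 of the 20 every CpG was 25 points or more lower in WT CP. In 19 the CpG levels of the 2 libraries did not overlap, against 1.77% of all bins. The 20 were chosen for the size of their loss, so these counts follow largely from the choice. None lay at a placed gene start, and 7 lay inside a placed gene.

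The largest loss was inside COL18A1, at chr21:46831001-46832000. Its 10 CpGs stood at 4.14% in WT CP (95% Wilson interval 2.99% to 5.71%, 845 reads) and at 93.6% in WT CME (91.7% to 95.1%, 808 reads), a difference of -89.4 points. A read over several CpGs counts at each, so these intervals understate even the counting error, and they cover no spread between cultures. Any PCR copies left in the deposited counts were not removed here. The 10 CpGs lie within 227 bases. Of these, 9 stood between 1.04% and 11.9% in WT CP, and the outermost at 37.0%, while in WT CME all lay between 85.7% and 97.5%.

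In chr18:46307001-46308000, all 16 CpGs were nearly free of methylation in WT CP. The bin stood at 1.04% in WT CP (1060 reads) and 83.1% in WT CME (456 reads). It lies in an interval between placed starts in which RefSeq lists CTIF, SMAD7 and DYM, SMAD7 being an inhibitor of TGF-beta signalling. The bin itself was not assigned to any of them. With gene starts placed by a looser match of 8 CG pairs, SMAD7 was placed, and this bin lay more than 5 kb outside it. At that setting another lost bin, chr18:46453001-46454000, was assigned to SMAD7, at 63.0% in WT CP and 90.1% in WT CME. With CpGs counted equally its difference was -15.9 points.

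Others lay before FGFR3, in SH3PXD2A and in the ZMIZ1 interval. A bin at chr4:1787001-1788000 was centred at -7520 bases from the placed start of FGFR3, a receptor of fibroblast growth factors, and stood at 7.08% in WT CP and 89.7% in WT CME. This is the bin in which 6 of 8 CpGs moved by 25 points, and with CpGs counted equally the levels were 25.5% in WT CP and 88.9% in WT CME. Inside SH3PXD2A, which encodes a scaffold of podosomes, chr10:105480001-105481000 stood at 8.05% in WT CP and 93.2% in WT CME. In an interval whose only coding gene is ZMIZ1, which encodes a transcriptional coregulator, chr10:80899001-80900000 stood at 5.47% in WT CP and 88.2% in WT CME over 12 CpGs.

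Bins inside genes of other roles moved as far. Within CLEC16A, chr16:11227001-11228000 stood at 4.19% in WT CP and 87.9% in WT CME. In SLC37A4, which encodes the glucose-6-phosphate carrier, chr11:118895001-118896000 stood at 6.69% in WT CP and 89.9% in WT CME. In ARHGEF10L, chr1:17923001-17924000 stood at 10.3% in WT CP and 92.6% in WT CME. All 3 lie inside a gene and far below their CME level at every CpG. The bin inside SIPA1L2, chr1:232731001-232732000, stood at 5.60% in WT CP and 87.4% in WT CME. The bin inside LCMT1, chr16:25160001-25161000, stood at 14.0% in WT CP and 98.3% in WT CME, and was the thinnest of the 20. Its 50 and 58 reads are sums over 5 CpGs within 48 bases. Each CpG had 10 reads in WT CP and 11 or 12 in WT CME, so far fewer separate reads may lie behind them.

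The rest lay outside the placed genes, where RefSeq order gives only the interval between 2 placed starts, and a bin may lie inside or outside a gene listed there. Between MIATNB and PITPNB, an interval whose only coding gene is MN1, chr22:28029001-28030000 stood at 6.32% in WT CP and 94.9% in WT CME. Between ERRFI1-DT and SLC45A1, chr1:8214001-8215000 stood at 7.04% in WT CP and 91.0% in WT CME. Between FOSL2 and PPP1CB, an interval whose only coding gene is PLB1, chr2:28907001-28908000 stood at 2.06% in WT CP and 85.7% in WT CME. Between R3HDM4 and WDR18, where RefSeq lists KISS1R and ARID3A, chr19:961001-962000 stood at 10.1% in WT CP and 90.8% in WT CME. The remaining 6 lay in intervals between CMIP and HSBP1, AP2A2 and TOLLIP, ATP8B1-AS1 and MALT1, CEP43 and AFDN, STXBP5 and TAB2, and SDCBP2-AS1 and STK35. They stood between 1.15% and 16.1% in WT CP and between 83.2% and 96.7% in WT CME.

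**Figure D4:**
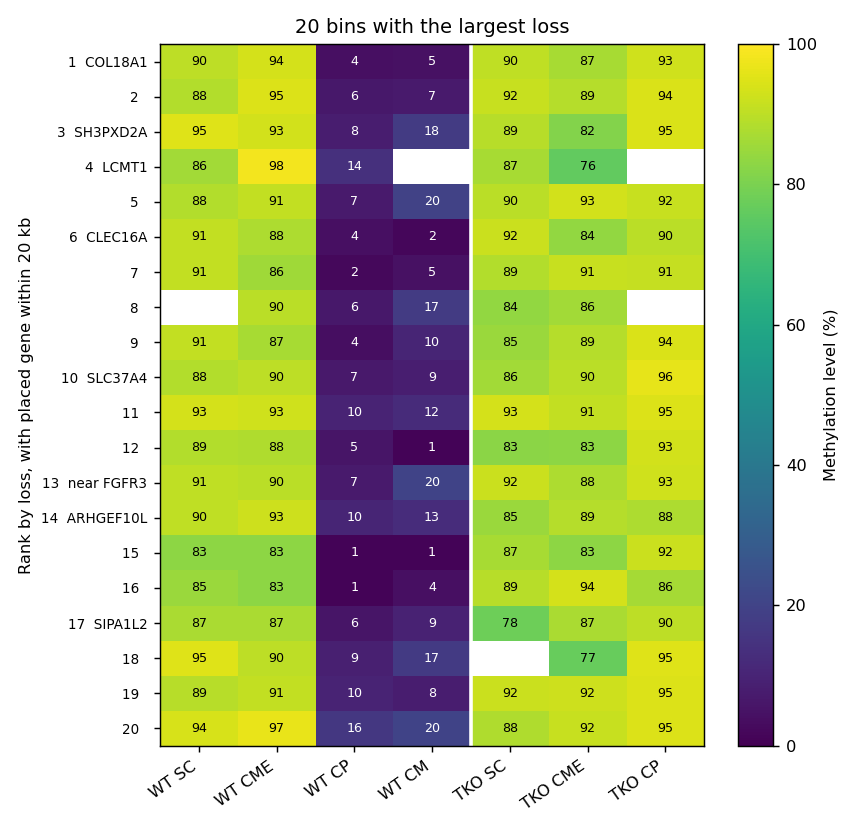
Methylation level (%, colour and printed number) of the 20 bins with the largest loss from WT CME to WT CP, by rank, in the 7 libraries. White cells had too few CpGs for a level. WT SC and WT CME lie above 80%, WT CP and WT CM at or below 20.1%, and the TKO libraries at 76.1% or more.

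The gene starts that could be placed rarely lost methylation, and few carried it. Placement needed at least 10 CG pairs within the 300 bases, so starts with fewer were not seen and the low levels hold for CG-rich starts only. Of 12467 windows of 300 bases at placed gene starts, 51 (0.409%) were lower in WT CP and 0 (0%) were higher by the same rule, and 95.4% stood under 20% in WT CME. Among the 379 windows at 60% or more in WT CME, 34 (8.97%) were lower. The 51 windows belong to 50 genes, 28 of them coding, and had medians of 29.7% in WT CP and 71.2% in WT CME. In 17 of the 50 the CpGs of the 2 libraries did not overlap. These windows were chosen for being lower, and the share over all 12467 windows was not taken.

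SLC25A45, a member of the mitochondrial carrier family, had the largest loss at its start. Its 10 CpGs stood at 4.81% in WT CP and 71.3% in WT CME. They lie from 246 bases before the start to 24 after it, and ranged from 0% to 14.9% in WT CP and from 60% to 82.1% in WT CME, with no overlap. A CpG level of 0% at 10 reads, the lowest coverage used, allows a level of up to 30%.

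FXYD1 encodes phospholemman, the regulator of the sodium pump in heart and skeletal muscle. Its 12 CpGs stood at 30.9% in WT CP and 90.1% in WT CME, and at 17.6% in WT CM. Single CpGs ranged from 0% to 57.7% in WT CP and from 83.9% to 95.5% in WT CME. The window was lower at every CpG, and its cardiomyocyte level was below that of CP.

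MIR1-1HG is the host transcript of muscle microRNAs, miR-1 among them. Its 16 CpGs stood at 9.96% in WT CP and 63.9% in WT CME, and at 4.50% in WT CM and 57.4% in WT SC. The 8 CpGs lying 142 to 202 bases before the start held most of the methylation, with a median of 10.4% in WT CP and 77.8% in WT CME. The 4 CpGs within 30 bases of the start were already low, at 6.25% to 24.6% in WT CME, and read 0% in WT CP on 14 reads each. In the TKO libraries the window stayed between 84.6% and 86.9% at all 3 stages.

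SMIM24, which encodes a small membrane protein, stood at 31.9% in WT CP and 80.3% in WT CME over 14 CpGs. The host transcript of the miR-200b group, MIR200BHG, stood at 21.2% in WT CP and 67.6% in WT CME. Among other coding genes, ZBTB38, which encodes a zinc finger protein that binds methylated DNA, stood at 11.8% in WT CP and 56.9% in WT CME. INF2, an actin-organising formin gene, stood at 32.1% in WT CP and 77.9% in WT CME. TPM4, which encodes a tropomyosin, stood at 62.6% in WT CP and 89.6% in WT CME. The level in WT CP thus differed widely among windows that all passed the same rule, from 0.571% to 67.3%.

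In the gene lists chosen for this tissue, the cardiac transcription factor genes were low already at CME and held no lost bin, while 2 sarcomere genes, placed only with a looser match, lost methylation around their starts. A bin counts for a gene when it lies from 5 kb before its placed start to 5 kb beyond its end, and the background is 3.58% of all bins. Of the cardiac transcription factors, 8 of 18 genes were placed (GATA6, HAND1, HEY2, IRX4, MEF2A, TBX18, TBX20 and TBX5), and 0 of 57 bins were lower. Their median level was 1.11% in WT CP and 2.62% in WT CME, and 1 of the 57 stood at 60% or more in WT CME. Of the sarcomere genes 5 of 24 were placed (ACTC1, ACTN2, MYL3, NEBL and TPM1), and 0 of 17 bins were lower. The median of the 17 in WT CME was 3.70%, and 4 of them stood at 60% or more there. With starts placed on 8 CG matches in place of 10, TNNI3 and LDB3 were placed too, and 4 of 30 bins were lower (13.3%). At this setting 256 starts were placed with the sequences read backwards, against 54 at 10 matches. TNNI3 encodes cardiac troponin I, the inhibitory subunit of the thin filament. Its bins at chr19:55669001, chr19:55670001 and chr19:55668001, centred at -400, -1400 and 600 bases from the start, stood at 17.4%, 33.1% and 45.1% in WT CP and at 83.6%, 75.1% and 81.8% in WT CME. LDB3 encodes a Z-disc protein of striated muscle, and its bin at chr10:88428001, over the start, stood at 32.4% in WT CP and 66.8% in WT CME. The lists of other cell types held few lost bins, with 0 of 35 bins for smooth muscle, fibroblast and epicardium, 0 of 19 for endoderm and 0 of 93 for neural ectoderm (1 of 115, in PAX7, on 8 matches), and 1 of 44 for endothelium and blood. Most of these bins had little to lose, with WT CME medians of 5.21%, 3.81%, 3.15% and 4.35% in that order. Only 6, 2, 9 and 13 of them stood at 60% or more there.

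Heart ion channel genes held lost bins at 2 of 10 placed genes. In that list 5 of 89 bins were lower (5.62%), with a median difference over the 89 of -1.85 points against -1.75 over all bins. KCNH2 encodes the channel of the rapid delayed rectifier current of the heart. Its bin at chr7:150667001-150668000 stood at 7.67% in WT CP and 78.3% in WT CME, and the next bin stood at 29.4% in WT CP and 82.7% in WT CME. In that next bin 3 of 6 CpGs were 25 points or more lower. With CpGs counted equally it stood at 51.5% in WT CP and 87.7% in WT CME. CACNA1C encodes the pore of the L-type calcium channel. Its bins at chr12:2393001-2394000, chr12:2598001-2599000 and chr12:2613001-2614000 stood at 38.6%, 54.4% and 31.4% in WT CP and at 83.9%, 90.1% and 79.1% in WT CME. In the last of them 7 of 13 CpGs were 25 points or more lower. With CpGs counted equally it stood at 44.2% in WT CP and 81.7% in WT CME. The KCNH2 bins were centred 4094 and 3094 bases beyond the placed start, and those of CACNA1C 231348 bases or more beyond it.

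Among BMP, TGF-beta and FGF signalling genes, 4 of 105 bins were lower (3.81%), at SMAD6 and FGFR2. SMAD6 encodes an inhibitor of BMP signalling that is active in the developing heart. Its bins beginning at chr15:66998001 and chr15:66999001, centred 3926 and 4926 bases beyond the placed start, stood at 34.6% and 24.4% in WT CP and at 90.2% and 73.0% in WT CME. In the bin at chr15:66999001, 9 of 14 CpGs were 25 points or more lower. With CpGs counted equally it stood at 18.7% in WT CP and 59.8% in WT CME. A further bin at chr15:67055001 stood at 20.8% in WT CP and 93.3% in WT CME. In FGFR2, a fibroblast growth factor receptor gene, the bin at chr10:123353001 stood at 60% in WT CP and 87.0% in WT CME, and with CpGs counted equally the difference, -24.95 points, missed the limit.

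In the WNT pathway list, whose signalling was switched on and then off by the 2 agents, 5 of 166 bins were lower (3.01%) and 1 was higher. TCF7L2 encodes a transcription factor that acts with beta-catenin, and its bins at chr10:114760001 and chr10:114752001 stood at 8.03% and 53.4% in WT CP and at 78.9% and 88.7% in WT CME. LRP5 encodes a Wnt co-receptor, and its bins at chr11:68141001 and chr11:68200001 stood at 38.3% and 54.8% in WT CP and at 88.8% and 90.1% in WT CME. WNT3, a ligand of the primitive streak, stood at 42.0% in WT CP and 89.3% in WT CME at chr17:44873001. WNT5A, a ligand that often acts without beta-catenin, went the other way at chr3:55508001-55509000, centred 12834 bases beyond the placed start. It stood at 42.1% in WT CP and 11% in WT CME over 14 CpGs, on 856 and 391 reads (adjusted p = 5.83e-29, Fisher's exact test).

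Early mesoderm genes had 3 of 56 bins lower (5.36%). They were the WNT3 bin, a bin in TBX6, the T-box factor of paraxial mesoderm, at 50.3% in WT CP and 88.0% in WT CME, and a bin in KDR, the VEGF receptor of endothelial and early heart progenitors, at 55.9% in WT CP and 90.8% in WT CME. The KDR bin is also the 1 lost bin of the endothelium list. The DNA methylation enzymes had 2 of 65 bins lower (3.08%). The bin in DNMT3A, a de novo methyltransferase gene, stood at 30.1% in WT CP and 74.7% in WT CME, and the bin in TET3 at 64.5% in WT CP and 89.7% in WT CME. The imprinted list had 1 of 56 bins lower, in BLCAP, at 53.2% in WT CP and 88.8% in WT CME. The pluripotency list had 1 of 55 lower, just before the start of TERT, the telomerase gene, at 62.7% in WT CP and 89.2% in WT CME. With CpGs counted equally the TET3 and BLCAP differences, -24.8 and -24.5 points, missed the limit. With bins shifted by 500 bases the second LRP5 bin (-23.1 points), TET3 (-22.0 points) and TERT (-12.3 points) missed it. The highest adjusted p of these list bins was that of TET3, at 4.05e-10 (Fisher's exact test).

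Some genes held many lost bins, and these were picked out after their values were seen. They were picked by number of lost bins, which favours genes with many measured bins. The share lost was 3.58% over all bins and 4.47% inside placed genes away from gene starts. Some genes with fewer lost bins had higher shares, such as SEMA3F with 4 of 9 (44.4%). RXRA, which encodes the shared partner of the retinoic acid receptor and other nuclear receptors, had 12 of 64 bins lower (18.8%). SEPTIN9, a cytoskeletal gene, had 11 of 44 (25%). KDM4B, which encodes a histone demethylase, had 10 of 89 (11.2%), and PIEZO1, which encodes a mechanically gated channel, had 9 of 52 (17.3%). The lost bins of RXRA had a median of 50.1% in WT CP and 87.2% in WT CME, and those of SEPTIN9 32.8% in WT CP and 86.6% in WT CME.

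Gain was rare, and in many of the 33 gained bins it depended on whether reads or CpGs were counted. With each CpG counted equally, the gain was 25 points or more in 9 bins and under 10 points in 18. The largest by reads, chr19:995001-996000, stood at 91.9% in WT CP and 13.3% in WT CME, but the mean over its 5 CpGs was 91.8% in WT CP and 75.8% in WT CME. There, 1 CpG at 7.71% held most of the 1597 WT CME reads. The bins chr1:3407001-3408000 in MEGF6, chr2:133014001-133015000 and chr5:21459001-21460000 differed by 2.03, -0.0808 and -0.318 points in the mean over CpGs, against 45.8, 44.4 and 44.4 points by reads. The bins chr19:13030001-13031000 and chr12:20704001-20705000 differed by 4.64 and 7.85 points in that mean, against 39.2 and 37.1 points by reads.

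The 9 bins with a gain by both measures stood between 39.6% and 98.4% in WT CP and between 10.3% and 72.2% in WT CME. Of the 8 largest gains by reads, chr6:28725001-28726000 (81.9% in WT CP and 33.8% in WT CME) and chr4:113574001-113575000 in LARP7 (75.4% in WT CP and 37.7% in WT CME) were among them. The other members were named after their values were seen. The WNT5A bin is one. A bin of 42 CpGs at chr12:115112001-115113000, in an interval whose only coding gene is TBX3, stood at 53.5% in WT CP and 25% in WT CME. A bin of 15 CpGs at chr17:59485001-59486000, in an interval that holds BCAS3 and TBX2, stood at 42.1% in WT CP and 13.9% in WT CME. TBX2 and TBX3 encode T-box repressors of the heart's conduction system and of its non-chamber muscle. A bin at chr6:31138001-31139000, in an interval that holds POU5F1 and HLA-C, stood at 39.6% in WT CP and 10.3% in WT CME, POU5F1 being the pluripotency factor OCT4. The others were chr8:38297001-38298000, chr1:12139001-12140000 and a bin on chromosome X. The TKO libraries differed among these bins. At the WNT5A, TBX3 and TBX2 bins they were high at both stages, at 91.4%, 94.7% and 90.2% in TKO CP and at 93.4%, 92.7% and 85.1% in TKO CME. At the bins in LARP7, chr8:38297001, chr6:31138001 and chr1:12139001 TKO CP was also the higher, at 80.7%, 56.7%, 39.5% and 81.2%, against 21.3%, 15.6%, 11.5% and 52.8% in TKO CME. At chr6:28725001 the levels were 25.7% in TKO CP and 40.4% in TKO CME, and the bin on chromosome X had no level in TKO CP. Of the 32 gained bins with reads in all 4 of these libraries, 5 were also called higher in TKO, against 0.755% of all bins.

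The other WT stages are given as a description, since the steps before and after each share a library with the pair that chose the bins. In the 3232 lost bins with a level in all 7 libraries, the WT medians were 79.3% at SC and 78.7% at CME before the step, 38.0% at CP, and 40.7% at CM after it. From SC to CME, 2875 of them (89.0%) changed by less than 10 points, against 97.9% of all bins, and from CP to CM 2417 (74.8%) did, against 96.8% of all bins. Between CP and CM, 20 rose by 25 points or more and 9 fell by that much. WT CM and WT SC had no part in choosing the bins, and by size alone 2167 of the 3232 (67.0%) lay 25 points or more below WT SC in WT CM, against 3.02% of all bins. None lay that far above it, against 0.148% of all bins. That pair falls on either side of the library name suffix as the chosen pair does.

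In TKO cells the lost bins were high at all 3 stages, by their medians. The TKO medians over the same 3232 bins were 85.1% at SC, 85.1% at CME and 89.3% at CP. WT CP was low there by the choice of bins. For a test of the difference of changes, 89393 bins had CpGs with 10 or more reads in all 4 libraries concerned. The change from CME to CP in WT lay 25 points or more below that in TKO in 5156 bins (5.77%) and above it in 56 (0.0626%), at an adjusted p below 0.01 (z test on reads). Among bins lost in WT this test holds the WT change that chose them, so no share of them is given. WT CME carries the suffix in its library name and TKO CME does not, so genotype and library set cannot be told apart in this test. The TKO change at the 3109 bins lost in WT had a median of 3.49 points (quartiles 0.583 and 6.48), against 1.56 over all bins.

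TKO CP was lower than TKO CME in 52 bins (0.0582%) and higher in 675 (0.755%). Of the 3109, 7 were also lower in TKO (0.225%, against the 0.0582% of all bins), and 10 were higher in TKO. One of the 7 lies in COL26A1, at chr7:101022001-101023000, with 12.9% in WT CP and 75.6% in WT CME, and 50.5% in TKO CP and 77.3% in TKO CME. The bin of the 7 with the largest fall in TKO, chr17:6757001-6758000, stood at 12.4% in WT CP and 37.5% in WT CME, and at 28.8% in TKO CP and 74.8% in TKO CME.

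**Figure D5:**
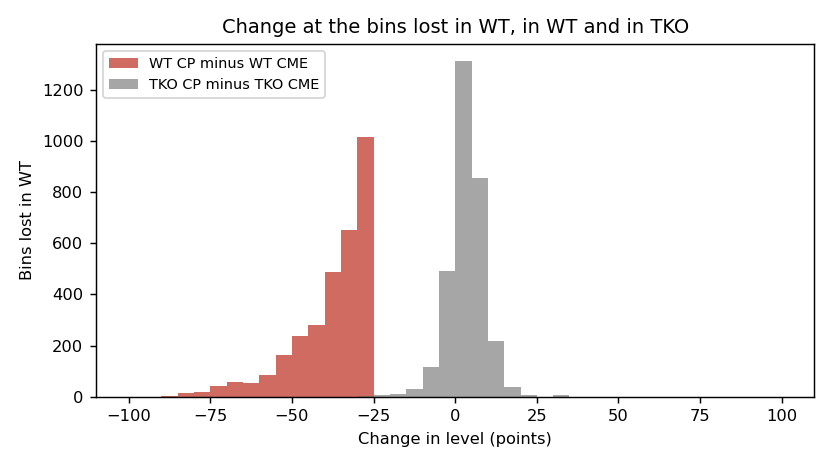
Change in methylation level from CME to CP (x axis, percentage points) at the 3109 bins lost in WT with reads in all 4 libraries, as the number of bins per 5 points (y axis), in WT (red) and TKO (grey). The WT changes lie at or below -25 points because they chose the bins, and the TKO changes centre on a median of 3.49 points.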

How the data were processed

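Alignment and methylation calling were done by a core facility, per the labels' protocols, on build hg19, per the submitters' processing notes. The names of the aligner and caller were not given in the sources used here. Per the file headers, each line holds a cytosine's strand, its coverage as a read count, and the percent of those reads that were C or T. These values are the authors' own, deposited without further scaling as far as they show. The lowest deposited count was 10. Total counts were 158372334 for WT CP and 141999649 for WT CME.

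Reads were recovered as coverage times percent, whole in 100% of lines at the precision of 3 decimals. Strands were summed per CpG (strand R: base minus 1). CpGs with 10 or more reads in both libraries and bins with 5 or more such CpGs entered Fisher's exact test, checked on simulated reads. Those reads were drawn independently, so the check does not cover a read counted at several CpGs or PCR copies. The bins named are the 20 largest losses, the 8 largest gains, the 5 longest runs (ties by mean loss), up to 3 called bins per gene list, and the bins nearest the limit. The further list bins were named after their values were seen. Members and lists were chosen with earlier results of these data known.

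No hg19 genome or annotation was used. Gene starts were placed, after the files were seen, by matching CG spacing in RefSeq promoters (GRCh38.p14) to the CpGs in the files, with at least 10 matches, a unique best position and RefSeq gene order. This placed 12637 starts of 10756 genes, and 15 fell out of order and were dropped. The sequences read backwards as a control were placed 54 times. Chromosome 8 had none, and the motif search planned was not run. A gene's inside runs from a placed start over its RefSeq length, so it is approximate. The tools were scipy 1.17.1, numba 0.67.0, pandas 2.3.3, numpy 2.4.6 and matplotlib 3.10.9 under Python 3.11.15.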

Additional observations from a re-analysis of the deposited data

Results flagged for a closer look

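The change from CME to CP differed between WT and TKO cells, by a z test on the reads, in 5156 bins where the WT change lay 25 points or more below the TKO change and in 56 where it lay above. The values below are the WT change minus the TKO change in points, over CpGs read in all 4 libraries, and each passed the test unless said otherwise.

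For the lost and gained bins the value holds the WT change that chose them, so a call there is no independent result. WT CME carries a suffix in its library name that TKO CME lacks. Among the 20 largest losses, 15 had enough CpGs to be tested. The value was -95.3 at the COL18A1 bin on chromosome 21, -94.1 at the bin near PITPNB, -98.1 in SH3PXD2A, -82.5 near ERRFI1-DT, -89.4 in CLEC16A, -83.3 near PPP1CB and -89.5 in SLC37A4. It was -86.9 near MALT1, -93.0 in the ZMIZ1 interval, -87.6 before FGFR3, -80.8 in ARHGEF10L, -91.0 at the bin of 16 CpGs on chromosome 18, -74.8 near AFDN, -84.6 near WDR18 and -83.4 near STK35.

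Among bins of the gene lists, the value was -74.4, -61.5 and -58.4 at the SMAD6 bins, -31.0 at FGFR2, -58.6 at DNMT3A, -28.5 at TET3, -77.7 and -44.8 at TCF7L2, -51.8 and -33.9 at LRP5 and -48.8 at WNT3. It was -48.0 at TBX6, -40.1 at KDR, -70.7 and -58.1 at KCNH2, -48.4, -55.7 and -39.1 at CACNA1C and -44.1 at BLCAP. The TERT bin, at -16.8, was not called.

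Among the gained bins, the value was 37.9 at WNT5A, 62.8 at the bin on chromosome 6, 77.7 at the first bin on chromosome 19, 67.4 in MEGF6, 46.6 on chromosome 2 and 33.1 at the second bin on chromosome 19. It was -21.7 in LARP7 and -13.1 at chr12:20704001, where TKO gained 59.4 and 50.2 points, and neither was called. Of the 6 called, all but the WNT5A and chromosome 6 bins are among those whose gain nearly vanished when CpGs were counted equally, or fell to 16 points.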

How the results depend on the processing

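The direction of the change held throughout: more bins were lower than higher in WT CP under all 16 alternatives, with median differences below 0 in all that give one (centring sets it to 0). Bins lower and higher numbered 961 and 10 with 10 or more CpGs per bin, 1046 and 5 at 40 points, and 12059 and 399 at 10 points. They numbered 1670 lower on the plus strand and 1777 on the minus strand alone, where fewer bins were tested. Bins higher numbered 11 with CpGs counted equally, 11 with the test on the best covered CpG alone, and 9 where both reads and CpG mean had to differ, an alternative added after seeing the data. The median difference was -1.69 with 20 or more reads per CpG, -1.61 with 10 or more CpGs, -1.60 on either strand, -1.71 over CpGs read in all 7 libraries, and -1.05 after correction for the mitochondrial C share, where 3275 bins were lower and 41 higher. Against TKO, 1658 bins lay below and 8 above at 40 points, and 92 lay above after centring. Of 664 values for 49 named bins, 615 kept their call. None of the lost bins changed sign, but 6 values of the largest gains did: -0.0808, -3.88 and -1.61 for chr2:133014001 (CpGs counted equally, plus strand, highest coverage left out), -0.318 for chr5:21459001 (CpGs counted equally), and -1.66 and -0.799 for chr19:13030001 and chr12:20704001 (bins shifted by 500 bases). With gene starts placed on 8 matches, gene-start bins were lost in 0.938% of cases, and the sarcomere list had 4 of 30 bins lower in place of 0 of 17. No paired analysis was possible because each group is 1 library.

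With 1 library per group, spread between cultures is unknown. The fragments cover CpG-rich DNA, and thinly covered bins such as that in LCMT1 resolve only large differences. The gene starts placed leave out starts with few CG pairs, which includes many heart muscle genes.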
